A study of Mus musculus with 12 samples.

Results

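Expression of 10 secreted factors of the Wnt pathway was followed through all 12 RNA-Seq libraries of the series. These were 5 Wnt ligands, *Wnt4*, *Wnt5a*, *Wnt7b*, *Wnt10b* and *Wnt16*, and 5 secreted Wnt inhibitors, *Wif1*, *Sfrp1*, *Sfrp2*, *Sfrp4* and *Dkk1*. They were chosen by name, with earlier results of these data known, and each was found in every library, among 23284 genes listed for sorted osteoblasts and 24346 for MC3T3-E1 cells. The first experiment compared 3 PTH with 3 vehicle libraries of 7AAD-Lin-CD45-ECFP+ cells, sorted from female Col2.3-ECFP mice, in which a fragment of the type I collagen promoter drives the cyan reporter ECFP in mature osteoblasts. The mice, 12 weeks old at the start, were injected on 5 days per week for 3 weeks with vehicle or with PTH (1–34), an N-terminal fragment of parathyroid hormone, at 40 µg/kg per day, and cells were taken 24 h after the last injection. The second experiment compared 3 libraries of *Slpi*-overexpressing with 3 of mock MC3T3-E1 cells, a clonal osteoblastic line from mouse calvaria. Both carried a retroviral pMX vector, with the coding sequence of *Slpi*, a secreted inhibitor of leukocyte proteases, or empty.

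Wnt proteins are secreted lipid-modified ligands that bind Frizzled receptors, and in the canonical branch also the co-receptors LRP5 and LRP6, so that β-catenin is spared from degradation and acts with TCF/LEF factors on target genes. WIF1 and the SFRP proteins bind Wnt ligands outside the cell, whereas DKK1 binds LRP5 and LRP6 and keeps the ligand from using them. In bone, canonical Wnt signaling favors osteoblast differentiation and the production of osteoprotegerin, and osteoblasts make both ligands and inhibitors.

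The values were FPKM, in which the fragments counted on a gene are scaled to transcript length and to library size, so levels of different genes were compared per length. FPKM summed to between 400839 and 462460 per osteoblast library and to between 541932 and 599746 per MC3T3-E1 library. The number of reads is unknown, but the steps between low values gave a relative depth that ranged from 0.790 to 1.404 over the osteoblast libraries and from 0.874 to 1.00 over the others. *Slpi* itself was at 386 ± 9.20 FPKM in mock and 1975 ± 129 FPKM in *Slpi* libraries (SD, *n* = 3 each), and at 2.21 ± 0.513 FPKM in vehicle and 28.2 ± 8.88 FPKM in PTH libraries. Of the osteoblast markers, *Bglap* was at 6963 to 14280 FPKM in the sorted cells but at 1.05 to 2.85 FPKM in MC3T3-E1 cells, whereas *Sp7* was above 29 FPKM in all 12 libraries. *Col1a1* was listed at 0 in vehicle replicate 3 and in all PTH libraries, against 26216 and 24170 FPKM in vehicle replicates 1 and 2, so a 0 in these files can be a failed estimate.

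RefSeq promoter windows of GRCm38.p6, 250 bases before the gene start, were at hand for *Wnt4*, *Wnt10b*, *Wnt16*, *Wif1*, *Sfrp2* and *Dkk1*. The 4 lines below show the members of these 6 whose mRNA rose with PTH, each cut where the GENCODE transcript begins, in lower case 5′ to 3′ with any match to the 3 motifs below in capitals. They lie at chr6:22287977-22288226 (*Wnt16*, plus strand), chr10:121033754-121033959 (*Wif1*, plus strand), chr3:83766071-83766320 (*Sfrp2*, plus strand) and chr19:30549666-30549746 (*Dkk1*, minus strand).
Wnt16: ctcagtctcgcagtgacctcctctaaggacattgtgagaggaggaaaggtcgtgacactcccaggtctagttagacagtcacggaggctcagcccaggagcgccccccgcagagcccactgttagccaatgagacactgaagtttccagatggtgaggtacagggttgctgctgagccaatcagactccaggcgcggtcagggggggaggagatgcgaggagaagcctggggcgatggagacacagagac
Wif1: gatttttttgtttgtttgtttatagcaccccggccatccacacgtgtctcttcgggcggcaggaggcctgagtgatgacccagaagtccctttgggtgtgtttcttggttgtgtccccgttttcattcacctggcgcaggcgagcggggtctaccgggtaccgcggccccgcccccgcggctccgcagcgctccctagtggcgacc
Sfrp2: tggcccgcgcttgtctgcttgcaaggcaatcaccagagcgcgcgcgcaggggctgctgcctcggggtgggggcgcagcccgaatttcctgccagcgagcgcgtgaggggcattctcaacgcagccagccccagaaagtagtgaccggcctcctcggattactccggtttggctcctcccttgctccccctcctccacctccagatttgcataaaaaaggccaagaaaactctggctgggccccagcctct
Dkk1: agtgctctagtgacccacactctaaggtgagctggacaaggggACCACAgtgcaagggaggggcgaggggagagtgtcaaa
Searched on both strands were the TCF/LEF core CTTTGA or CTTTGT, the cAMP response half-site TGACG and the RUNX core TGTGGT. They occur in 27.6%, 17.8% and 14.05% of all 32851 promoter windows of 250 bases. The whole windows of *Wnt16*, *Wif1*, *Sfrp2* and *Wnt4* held none of these letters. *Wnt10b* held 1 TGACG, starting 6 bases before its start. *Dkk1* held the 1 RUNX core printed, on the minus strand relative to the gene, and 3 TCF/LEF cores starting 174, 117 and 98 bases before the RefSeq start. The core at 174 is cut by the GENCODE start, so that its first letters end the printed line in lower case. Those at 117 and 98 lie within the GENCODE transcript and were not printed. The 4 windows thus shared no match to these letters, which says nothing of other sequences or other windows.

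With PTH, 6 of the 10 factors rose in sorted osteoblasts and none fell. The inhibitors *Wif1*, *Sfrp2*, *Sfrp4* and *Dkk1* and the ligands *Wnt7b* and *Wnt16* passed the test, a limma fit on log2(FPKM + 1) with an adjusted *p* under 0.05 over the 13004 genes tested. At this threshold 6.38% of all tested genes were higher and 8.85% were lower. At least 2-fold changes on that scale at an unadjusted *p* under 0.05 were found for *Wnt7b* and *Wif1*, against 1.24% of all tested genes higher and 4.35% lower. The PTH libraries lay above all vehicle libraries for 7 members, *Sfrp1* included, against 19.5% of tested genes above and 20.9% below. The median log2 fold change was 0.62 over the 10 members and 0.0066 over all tested genes. As the samples were bulk RNA, a change in the share of a cell type and a change in RNA per cell cannot be told apart.

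**Figure D1:**
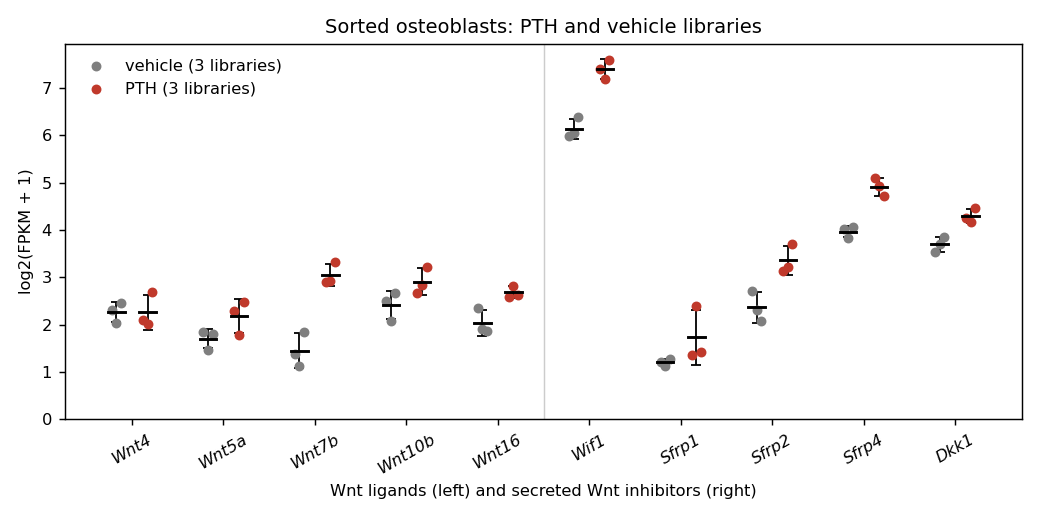
Level of the 10 factors in sorted osteoblasts, as log2(FPKM + 1). Points are libraries (3 vehicle in grey, 3 PTH in red), horizontal bars are means and error bars are SD. *Wif1* was the highest in each library, and vehicle and PTH libraries did not overlap for *Wnt7b*, *Wnt16* or any of the 5 inhibitors.

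Among the ligands, *Wnt7b* changed most. *Wnt7b*, whose product induces osteoblast differentiation, was at 1.61, 1.17 and 2.58 FPKM in vehicle and at 6.42, 6.59 and 8.95 FPKM in PTH libraries. All PTH libraries were thus well above the highest vehicle library, with a 4.09-fold higher mean and a log2 fold change of 1.59 ± 0.221 (SE; limma adjusted *p* = 0.0142). The gene lies on chr15:85535437-85582473 (mm10, minus strand).

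*Wnt16*, a ligand known for its link to cortical bone thickness, was at 4.08, 2.73 and 2.64 FPKM in vehicle and at 4.99, 6.08 and 5.20 FPKM in PTH libraries. Vehicle replicate 1 came within 1 FPKM of the lowest PTH library. The log2 fold change was 0.64 ± 0.172 (adjusted *p* = 0.0483), and the call was lost in 10 of 12 alternative settings.

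The 3 other ligands did not pass the test. *Wnt10b*, a canonical ligand that favors osteoblasts over adipocytes, was at 4.65, 3.25 and 5.38 FPKM in vehicle and 5.33, 6.12 and 8.34 FPKM in PTH libraries, with a log2 fold change of 0.49 (95% confidence interval −0.0096 to 0.98, limma adjusted *p* = 0.156). *Wnt5a*, a mostly non-canonical ligand that acts through ROR2, was at 2.57, 1.77 and 2.51 FPKM in vehicle and 3.89, 2.43 and 4.55 FPKM in PTH libraries (log2 fold change 0.47, interval −0.04 to 0.99, limma adjusted *p* = 0.176). For both genes, the lowest PTH library lay below the highest vehicle library. *Wnt4*, which can act through either branch, was at 3.98, 3.08 and 4.49 FPKM in vehicle and 3.25, 3.04 and 5.43 FPKM in PTH libraries, with a log2 fold change of −0.0054 (interval −0.52 to 0.51, limma adjusted *p* = 0.989).

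Of the inhibitors, *Wif1* was the most abundant and showed the largest change. *Wif1*, which encodes a secreted protein that binds Wnt ligands directly, was at 62.7, 65.3 and 82.6 FPKM in vehicle and at 169, 146 and 194 FPKM in PTH libraries. The lowest PTH library was above the highest vehicle library by more than the range within vehicle, with a 2.42-fold higher mean and a log2 fold change of 1.26 ± 0.149 (SE; limma adjusted *p* = 0.0133). *Wif1* lies on chr10:121033960-121100650 (mm10, plus strand).

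Of the secreted Frizzled-related proteins, which share a ligand-binding domain with the receptors, 2 of 3 rose. *Sfrp4*, whose loss in people thins cortical bone, went from 15.1, 13.2 and 15.6 FPKM to 33.2, 29.5 and 25.4 FPKM, a log2 fold change of 0.95 ± 0.131 (adjusted *p* = 0.0140). *Sfrp2* went from 5.58, 3.99 and 3.19 FPKM to 7.80, 8.35 and 12.1 FPKM, a log2 fold change of 0.99 ± 0.221 (adjusted *p* = 0.0323). The groups did not overlap for either gene, but the call of *Sfrp2* was lost in 7 of 12 alternative settings, the replicate block (adjusted *p* = 0.0547) and no filter (adjusted *p* = 0.0533) among them.

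*Sfrp1* was at 1.31, 1.19 and 1.403 FPKM in vehicle and at 1.58, 4.28 and 1.69 FPKM in PTH libraries, with a log2 fold change of 0.53 (95% confidence interval −0.16 to 1.21, limma adjusted *p* = 0.246). PTH replicate 2 alone stood far above the rest, and without it the log2 fold change was 0.19. In that library the summed level of 4 muscle markers was 1135 FPKM, against 0.366 to 9.74 FPKM in the 5 others; their part in the value of *Sfrp1* was not tested.

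*Dkk1*, the LRP5 and LRP6 antagonist, was at 10.6, 11.95 and 13.4 FPKM in vehicle and at 18.0, 17.1 and 21.0 FPKM in PTH libraries. The groups were apart, with a log2 fold change of 0.60 ± 0.130 (adjusted *p* = 0.0304). Without vehicle replicate 1 or without vehicle replicate 2 no member kept an adjusted *p* under 0.05, and 1 and 0 of all tested genes were called, although 6 members had an unadjusted *p* under 0.05 in each case. Without PTH replicate 1 or 3, 3 members passed, *Wnt7b*, *Wif1* and *Sfrp4*.

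Summed per library, the 5 inhibitors went from between 95.4 and 116 FPKM in vehicle to between 205 and 254 FPKM in PTH libraries, and the 5 ligands from between 11.996 and 17.6 to between 23.9 and 32.5 FPKM. Both sums were apart between the groups. The ratio of the inhibitor sum to the ligand sum was 5.65 to 7.98 in vehicle and 7.82 to 9.62 in PTH libraries, with 1 vehicle library above the lowest PTH library. *Wnt7b* made up 9.53 to 14.7% of the ligand sum in vehicle and 26.9 to 27.6% in PTH libraries, while *Wif1* made up 65.7 to 71.1% and 71.1 to 76.3% of the inhibitor sum.

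In vehicle libraries the level of *Wif1* was followed by those of *Sfrp4* and *Dkk1*, whose ranges overlapped, and then by *Wnt10b*, *Sfrp2*, *Wnt4* and *Wnt16*, each overlapping the next. *Wnt5a*, *Wnt7b* and *Sfrp1* came last and overlapped likewise. In PTH libraries *Wif1*, *Sfrp4* and *Dkk1* were apart from each other and from the rest, and *Wnt7b* had moved from the ninth to the fifth place, between *Sfrp2* and *Wnt10b*, with ranges that overlapped both.

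Marker levels of other cell types differed between the groups as well, although the sort for Lin-CD45- cells should remove blood cells. Summed levels of 7 neutrophil markers were 351 to 440 FPKM in vehicle and 2220, 1856 and 649 FPKM in PTH libraries, and 4 of the 7 passed the test as higher. PTH replicate 3 had the lowest of these 3 sums. Of the 6 members that rose, it had the highest PTH levels of *Wnt7b*, *Wif1*, *Sfrp2* and *Dkk1*, the lowest of *Sfrp4* and the middle one of *Wnt16*. The same library had the highest PTH levels of the osteoblast markers *Bglap*, *Sp7*, *Alpl*, *Ibsp* and *Runx2*. Of 7 osteoblast markers 1 passed as higher, *Alpl* with a log2 fold change of 0.60, but *Col1a1* and *Col1a2* were listed at 0 in all PTH libraries. *Sp7*, *Ibsp*, *Runx2* and *Bglap* had log2 fold changes of 0.48, 0.36, 0.44 and 0.28 that did not pass. Of 4 chondrocyte markers 2 passed as higher, *Acan* and *Sox9*, both with 0.93. Beside these marker counts, 6.38% of all tested genes were higher. The summed chondrocyte markers were at 588 to 704 FPKM in vehicle and 599 to 727 FPKM in PTH libraries. These sums were mostly *Col2a1*, at 566 to 676 and 541 to 686 FPKM, and say little of the others. *Col9a1* had a log2 fold change of 1.04 that did not pass (limma adjusted *p* = 0.158). Megakaryocyte markers summed to 172, 138 and 2.22 FPKM in PTH libraries, against 1.79 to 3.90 FPKM in vehicle. The part of these cells in the rise of the members was not tested.

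A list of 74 other Wnt genes, of which 73 were measured and 51 tested, held 6 genes that rose and 5 that fell with PTH, which is 11.8% and 9.80% of those tested beside 6.38% and 8.85% of all tested genes, with a median log2 fold change of 0.13. The share that fell was thus close to that of all genes. *Notum*, which encodes an enzyme that removes the lipid of Wnt ligands, went from 5.96, 3.62 and 6.52 FPKM to 18.5, 15.02 and 23.5 FPKM (log2 fold change 1.66 ± 0.232, limma adjusted *p* = 0.0142). *Dkk3*, a divergent relative of *Dkk1*, rose by 0.59 on the log2 scale. *Wls*, needed to carry Wnt ligands to the cell surface, rose by 0.69. The receptors *Fzd1* and *Ror2* rose by 0.72 and 0.82, and the cell-cycle gene *Ccnd1* rose by 1.22.

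The TCF/LEF factors that changed went the other way. *Tcf7* was at 81.8, 78.7 and 64.1 FPKM in vehicle and at 45.5, 38.6 and 55.4 FPKM in PTH libraries (log2 fold change −0.68 ± 0.159, limma adjusted *p* = 0.0352). *Lef1* had a log2 fold change of −1.08 and *Rnf43*, whose product removes Frizzled receptors from the membrane, of −1.17. The other ligands *Wnt6* and *Wnt10a* fell as well, by 1.39 and 1.00 on the log2 scale. *Rnf43*, *Wnt6* and *Wnt10a* were below 1 FPKM in every PTH library, with PTH means of 0.427, 0.305 and 0.0503 FPKM. Their vehicle means were 2.201, 2.431 and 1.156 FPKM, and they passed the filter through vehicle libraries alone. *Wnt10a* did so through vehicle replicate 1 only, at 1.87 FPKM. These genes could thus enter the count only by being high in vehicle libraries.

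Both *Tcf7* and *Lef1* are also expressed in T cells. The summed level of 4 T cell markers was 120, 112 and 77.6 FPKM in vehicle and 10.8, 15.7 and 0.477 FPKM in PTH libraries. Most of the vehicle sum was *Cd3g*, at 97.5, 87.3 and 60.4 FPKM. Of these markers 3 fell, beside 8.85% of all tested genes. *Cd3d* passed the filter through vehicle libraries alone, and *Cd2* did not pass the test (log2 fold change −0.39, limma adjusted *p* = 0.406). *Cd3d*, *Cd3e* and *Cd3g* were listed at 0 in PTH replicate 3, and a 0 can be a failed estimate. In that library *Tcf7* was at its highest and *Lef1* at its lowest PTH level, 55.4 and 0.546 FPKM. Summed mast cell markers went from 48.2 to 74.9 FPKM in vehicle to between 0.854 and 8.55 FPKM in PTH libraries. Nearly all of the vehicle sum was *Cpa3*, at 74.0, 70.7 and 46.7 FPKM. *Kit* did not pass the test (log2 fold change −0.11, limma adjusted *p* = 0.765), and *Ms4a2* was listed at 0 in every library. The sort should remove both cell types, and their part in the fall of the 5 genes was not tested. *Axin2*, a widely used target gene of canonical signaling, had a log2 fold change of −0.38 that did not pass the test (limma adjusted *p* = 0.128).

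The profile of *Wnt7b*, the called member with the largest change, was closest to those of *Notum*, *Dusp5* and *Bcan*. Their root mean square differences from it in centred log2(FPKM + 1) over the 6 libraries were 0.151, 0.167 and 0.179. *Dusp5* encodes a phosphatase of ERK and *Bcan* a proteoglycan. The log2 fold changes of these 3 genes were 1.66, 1.61 and 1.38.

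In *Slpi*-overexpressing MC3T3-E1 cells, the same pair of genes led the members: *Wnt7b* and *Wif1* rose, whereas *Sfrp2*, *Sfrp1* and *Wnt10b* fell. Only 6 of the 10 members reached an FPKM of 1 in at least 1 library and were tested, and 2 of these 6 passed as higher and 3 as lower among the 11466 genes tested. In this comparison 31.9% of all tested genes were higher and 28.9% lower, so passing the test was common. At least 2-fold changes were found for *Wnt7b* and *Wif1*, both higher, against 0.75% of tested genes higher and 0.384% lower. The groups were apart for the same 5 members, against 34.9% of tested genes above and 32.2% below. *Wnt7b* passed the filter through the *Slpi* libraries alone and *Sfrp1* through the mock libraries alone. *Wnt7b* could thus enter these counts only by being high in *Slpi*, and *Sfrp1* only by being high in mock libraries. The median log2 fold change of the 6 was −0.14, and that of all tested genes 0.0041.

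**Figure D2:**
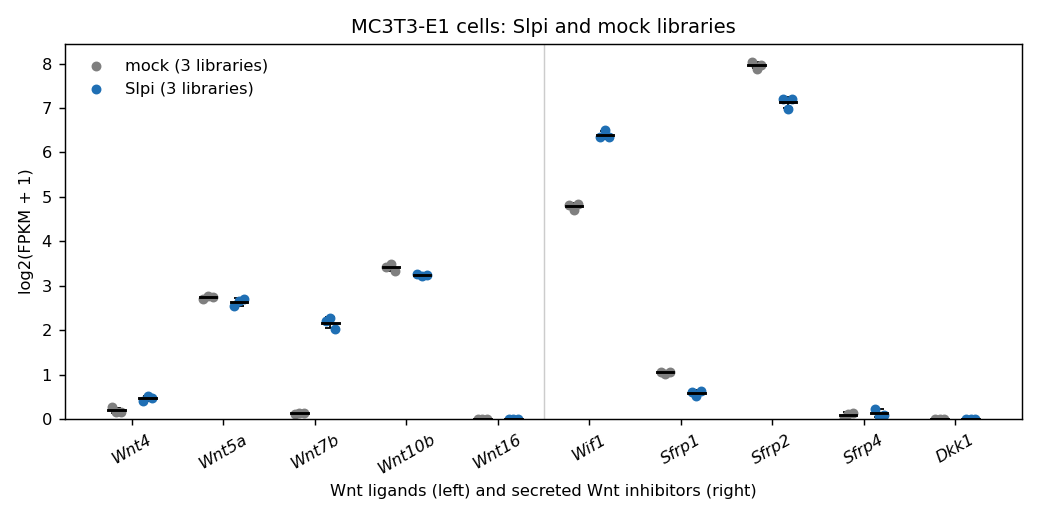
Level of the 10 factors in MC3T3-E1 cells, as log2(FPKM + 1). Points are libraries (3 mock in grey, 3 *Slpi* in blue), horizontal bars are means and error bars are SD. *Sfrp2* was the highest in each library, *Wnt7b* was near 0 in mock libraries only, and *Wnt16* and *Dkk1* were listed at 0 in all 6.

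*Wnt7b* was at 0.077, 0.106 and 0.097 FPKM in mock and at 3.65, 3.86 and 3.07 FPKM in *Slpi* libraries. It was below 1 FPKM in every mock library and passed the filter through the *Slpi* libraries alone. The mean was 37.8-fold higher, a ratio that rests on mock values near 0.1 FPKM, and the log2 fold change of FPKM + 1 was 2.05 ± 0.0861 (adjusted *p* = 1.3e-06). With a pseudocount of 0.1 it was 4.23.

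*Wif1* was at 27.2, 25.3 and 27.6 FPKM in mock and at 80.9, 89.5 and 80.3 FPKM in *Slpi* libraries. The mean was 3.13-fold higher, with no overlap of the groups and a log2 fold change of 1.61 ± 0.0519 (adjusted *p* = 3.5e-07). *Sfrp2* was by far the most abundant member in these cells, at 261, 236 and 251 FPKM in mock and 146, 126 and 145 FPKM in *Slpi* libraries. It fell by 0.84 ± 0.0627 on the log2 scale (limma adjusted *p* = 1.8e-05), the mean being 1.79-fold lower.

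*Sfrp1* was at 1.10, 1.03 and 1.10 FPKM in mock and at 0.519, 0.431 and 0.557 FPKM in *Slpi* libraries, and passed the filter through the mock libraries alone (log2 fold change −0.47 ± 0.0791, limma adjusted *p* = 0.00109). *Wnt10b* was at 9.70, 10.3 and 9.12 FPKM in mock and 8.57, 8.39 and 8.52 FPKM in *Slpi* libraries. Its groups were apart by a narrow margin, with a log2 fold change of −0.17 ± 0.0495 (adjusted *p* = 0.0168) that did not keep its call without mock replicate 2 or without *Slpi* replicate 2 (limma adjusted *p* = 0.0655 and 0.0503). *Wnt5a* was at 5.51, 5.87 and 5.71 FPKM in mock and 4.86, 5.28 and 5.53 FPKM in *Slpi* libraries and did not pass the test (log2 fold change −0.11, 95% confidence interval −0.24 to 0.023, limma adjusted *p* = 0.134).

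The other 4 members stayed below 1 FPKM. *Wnt4* was at 0.201, 0.126 and 0.127 FPKM in mock and 0.326, 0.430 and 0.402 FPKM in *Slpi* libraries, and with no filter on low values its log2 fold change was 0.27 (limma adjusted *p* = 0.00240). *Sfrp4* lay between 0.022 and 0.178 FPKM in the 6 libraries. *Wnt16* and *Dkk1*, which were among the members that rose with PTH in sorted osteoblasts, were listed at 0 in all 6 and could not be compared.

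**Figure D3:**
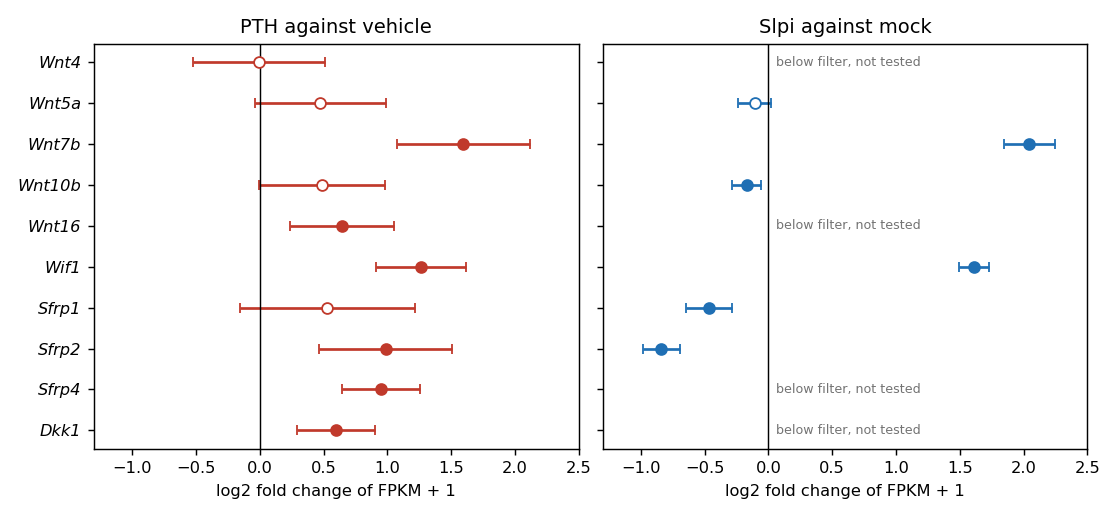
Log2 fold change of FPKM + 1 for the 10 factors, PTH against vehicle on the left and *Slpi* against mock on the right. Points are limma estimates from 3 against 3 libraries with 95% confidence intervals, filled where the adjusted *p* was under 0.05. *Wnt7b* and *Wif1* had the largest values in both, and *Sfrp2* lay above 0 on the left and below 0 on the right.

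The make-up of the secreted factors shifted in *Slpi* libraries. The 5 inhibitors summed to between 262 and 289 FPKM in mock and between 216 and 228 FPKM in *Slpi* libraries. *Sfrp2* made up 89.7 to 90.2% of that sum in mock and 58.3 to 64.2% in *Slpi* libraries, whereas *Wif1* went from 9.39 to 9.86% to between 35.5 and 41.4%. Among ligands, *Wnt7b* went from 0.497 to 0.648% of the ligand sum to between 17.5 and 21.5%, and *Wnt10b* from 60.6 to 62.7% to between 46.7 and 49.3%. In both groups the order of levels ran from *Sfrp2* through *Wif1* and *Wnt10b* to *Wnt5a*, with no overlap between neighbours, and in *Slpi* libraries *Wnt7b* came next.

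**Figure D4:**
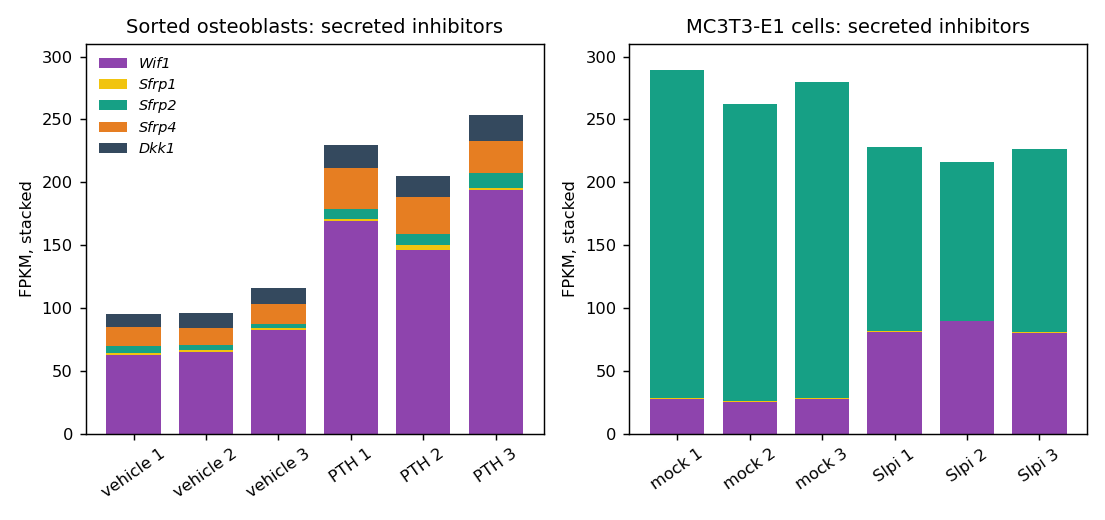
Stacked FPKM of the 5 secreted inhibitors in each library, sorted osteoblasts on the left and MC3T3-E1 cells on the right. *Wif1* makes up most of each bar on the left, where bars reach 95.4 to 116 FPKM in vehicle and 205 to 254 FPKM in PTH libraries, and *Sfrp2* makes up most of each bar on the right.

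The direction of *Sfrp2* was thus opposite in the 2 experiments. They used other cells and were scaled separately, and the difference between their changes was not tested. Levels differed too: *Sfrp2* was at 3.19 to 12.1 FPKM in sorted osteoblasts and at 126 to 261 FPKM in MC3T3-E1 cells.

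In MC3T3-E1 cells the list of 74 other Wnt genes had 48 tested, of which 22 rose and 17 fell, or 45.8% and 35.4% beside 31.9% and 28.9% of all tested genes, with a median log2 fold change of 0.085. All 6 tested target and feedback genes rose, with a median of 1.48. Among them, *Nkd2* and *Apcdd1* were below 1 FPKM in every mock library and passed the filter through the *Slpi* libraries alone. Of the other genes that rose, *Frzb*, with a mean of 0.434 FPKM in mock and 1.39 FPKM in *Slpi* libraries, and *Lef1* also did so. These genes could thus enter the count only by being high in *Slpi* libraries. *Tnfrsf11b*, which encodes osteoprotegerin, went from 7.66, 7.64 and 6.87 FPKM to 43.3, 52.5 and 46.2 FPKM (log2 fold change 2.52 ± 0.0718, limma adjusted *p* = 1.7e-07). The negative regulators *Axin2*, *Nkd2* and *Apcdd1* rose by 1.66, 1.30 and 2.30 on the log2 scale.

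Of the 4 TCF/LEF factors, *Tcf7* and *Lef1* rose and *Tcf7l1* and *Tcf7l2* fell, beside 31.9% of all tested genes higher and 28.9% lower. *Tcf7* went from 2.57, 2.17 and 2.28 FPKM to 36.6, 40.2 and 33.5 FPKM (log2 fold change 3.50 ± 0.0727, limma adjusted *p* = 3.9e-08). *Lef1* rose by 1.45, from a mean of 0.665 to 3.56 FPKM, and passed the filter through the *Slpi* libraries alone. T cell markers were listed at 0 in all 6 MC3T3-E1 libraries. Both factors had gone down in sorted osteoblasts with PTH; the difference was not tested.

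Of 16 tested receptors and co-receptors, 5 rose and 7 fell, or 31.25% and 43.75%, the first close to the 31.9% of all tested genes and the second beside 28.9%. *Lrp4*, a receptor for sclerostin, rose by 1.06, *Kremen1*, which binds DKK proteins, rose by 0.67, and *Znrf3*, a relative of *Rnf43*, rose by 0.76. *Fzd1*, *Fzd2*, *Fzd8*, *Fzd9*, *Lrp5*, *Lrp6* and *Lgr4* fell. *Dkk3* fell by 0.64, and both tested genes of ligand secretion, *Porcn* and *Wls*, fell. Osteoblast markers moved along, as 6 of 7 rose, among them *Ibsp*, *Alpl* and *Sp7* with log2 fold changes of 3.22, 1.71 and 1.49. Their part in the changes of the members was not tested.

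The profiles closest to that of *Wnt7b* in MC3T3-E1 cells were those of *Ppfibp2*, *Rap1gap* and *Car3*, with root mean square differences of 0.0543, 0.0810 and 0.0944 over the 6 libraries. Like *Wnt7b*, *Car3*, which encodes a carbonic anhydrase, was near 0 in mock libraries, with a mean of 0.0817 FPKM against 3.71 FPKM in *Slpi* libraries. *Rap1gap* encodes a GTPase-activating protein of Rap1.

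Genes near the members were compared with them, by starts within 1 Mb on mm10. Over all tested genes, 31.9% rose and 28.9% fell with *Slpi*, and 6.38% rose with PTH. Around *Wif1*, 11 of 13 tested neighbours rose and 1 fell in *Slpi* libraries, with log2 fold changes from −0.21 to 1.23. Their median was 0.50, and *Wif1*, at 1.61, stood 1.11 above that median. Farther out, within 10 Mb, log2 fold changes with *Slpi* ran from −0.61 (*Dgka*, at 7.71 Mb) to 1.47 (*Dyrk2*, at −2.16 Mb). Rises were not confined to 1 Mb around *Wif1*. *Nup107* (1.41, at −3.24 Mb), *Cct2* (1.32, at −3.97 Mb) and *Nap1l1* (1.09, at −9.56 Mb) also passed as higher. Other genes passed as lower, such as *Phlda1* (−0.37, at −9.53 Mb) and *Lrp1* (−0.53, at 6.59 Mb). In PTH libraries none of the 11 tested neighbours of *Wif1* passed the test. Their median was −0.0089, which left *Wif1* 1.27 above that median. Around *Wnt7b*, 5 of 11 neighbours rose and 2 fell with *Slpi* (median 0.11), and 1 of 15 rose with PTH (median 0.055). The part of the region in the rise of *Wif1* in *Slpi* libraries was not tested.

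**Figure D5:**
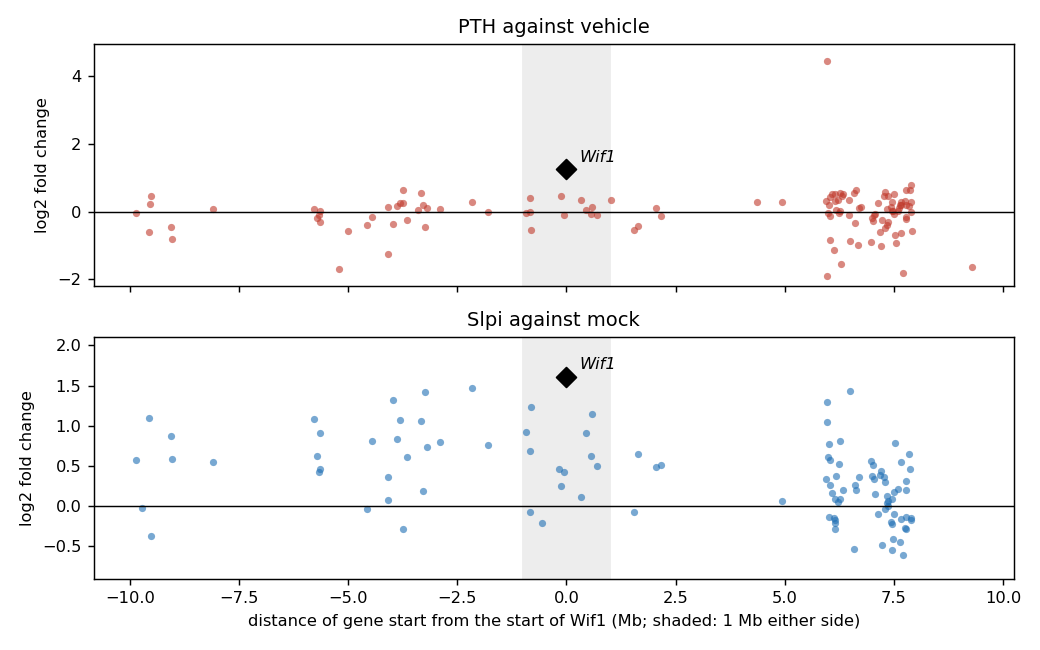
Log2 fold change of tested genes by the distance of their start from that of *Wif1*, within 10 Mb, for PTH against vehicle (top) and *Slpi* against mock (bottom). Each point is a gene and the diamond is *Wif1*. Within the shaded 1 Mb on either side, the median of the neighbours was −0.0089 in the upper and 0.50 in the lower panel. Their highest values were 0.46 and 1.23.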

How the data were processed

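The deposited values are FPKM per gene, made by the authors by mapping HiSeq reads to mm10 with TopHat2 2.0.13, Bowtie2 2.2.3 and SAMtools 0.1.19 and by scaling with Cuffnorm of Cufflinks 2.2.1. The annotation and the scaling option are not given in the sources used here. The labels and the methods name different library kits for the MC3T3-E1 cells. Each experiment was tested on its own, 3 against 3 libraries without a replicate block, by moderated linear models on log2(FPKM + 1) in limma 3.58.1 (R 4.3.3; eBayes allowing a trend). A gene entered if any of the 6 libraries reached an FPKM of 1, and Benjamini-Hochberg adjustment ran over all genes that entered. The fit was run on simulated normal values in which 200 genes had a log2 fold change of 2. It recovered 180 of them with 13 false calls for osteoblasts, and 199 with 9 for MC3T3-E1 cells. Smaller changes, like those of the members with PTH, were not simulated. Two-sided exact permutation tests of 3 against 3 cannot go below 0.1, so sums were not tested. The methods say in general that biological replicates came from separate mice. The labels do not say this of these libraries, or whether the MC3T3-E1 replicates were separate cultures, for which *p* values may measure technical spread alone. Promoter sequences came from RefSeq and gene positions from GENCODE M21. Members and gene lists were chosen with earlier results of these data known. Named were all members, the list genes changed at least 1.5-fold at an adjusted *p* under 0.05 (up to 10 per experiment, by *p*), and the 3 genes closest to the member with the largest change. Other genes of that list were named after their values were seen. Alternatives were a replicate block, no filter, a filter on the mean (FPKM of 1 or more), 0.1 as pseudocount, eBayes without a trend, quantile normalization and leaving out each library.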

Additional observations from a re-analysis of the deposited data

How the results depend on the processing

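With PTH, the 6 members that rose were 4 with a replicate block, 4 with no filter, 5 with a pseudocount of 0.1 or without a trend, and 6 with a mean filter or quantile normalization. Leaving out 1 library gave 0 to 5 members, with 0 without vehicle replicate 1 or 2 and 3, *Wnt7b*, *Wif1* and *Sfrp4*, without PTH replicate 1 or 3. The 6 other Wnt genes that rose became 0 to 6, and the 5 that fell became 0 to 4 when 1 library was left out and 3 with the block. *Wnt16* lost its call in 10 of 12 alternatives, *Sfrp2* in 7, *Dkk1* in 4, and *Wnt7b*, *Wif1* and *Sfrp4* in 2 each. *Wnt4* changed sign, with 0.085 under quantile normalization and −0.22 to 0.12 when 1 library was left out. The cause was not tested. With *Slpi*, every count stayed within 1.5 times its value, and *Sfrp1* could not be tested at a mean FPKM of at least 1.

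Whether equal replicate numbers mark a shared batch was not settled here. Same-numbered libraries correlated in their deviations from the group means with r of 0.029, 0.073 and 0.10 for PTH and 0.039, −0.052 and −0.00026 for *Slpi*. Between libraries of different numbers, r ran from −0.12 to 0.069 for PTH and from −0.099 to 0.10 for *Slpi*. The replicate block, which pairs these numbers, changed the genes called with PTH from 830 higher and 1151 lower to 1028 and 1234, and left 2 members higher and 3 lower with *Slpi*. Depth limits genes below 1 FPKM, for which no count of reads was available.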
